A study of Mus musculus with 12 samples.

Results

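The EGF receptor family and its ligands were examined across mammary epithelial cell (MEC) 3D cultures that lack or retain Blimp-1, a transcriptional repressor encoded by Prdm1. The 8 genes were chosen by name: the ligand genes Areg, Ereg, Hbegf, Tgfa and Btc, and the receptor genes Egfr, Erbb2 and Erbb3, among 19058 genes with a named probe on the array. They are represented by 15 of 45281 probes. Of these, 10 probes for 6 of the genes were detected (p-value under 0.05 against the negative controls) on 3 or more of the 12 arrays. These 6 genes were tested among 10725 genes in all.

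The ligands are made as membrane-anchored precursors, and proteases of the ADAM family cut them free to act on the same or neighbouring cells. Amphiregulin, the product of Areg, and TGF-alpha bind the EGF receptor, whereas betacellulin, epiregulin and HB-EGF bind both the EGF receptor and ErbB4. ErbB2 has no known ligand of its own and signals as the partner of another family member, and ErbB3 binds neuregulins. In the mammary gland amphiregulin acts downstream of the oestrogen receptor in the elongation of ducts, and the EGF receptor pathway feeds into the ERK and PI3 kinase cascades.

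Arrays were available for 4 groups of 3 samples each: Blimp-1 cKO cultures at Day 3 (D3), wild type cultures at D3, Blimp-1 cKO cultures at Day 4 (D4) and wild type cultures at D4. The cKO cells (labelled Prdm1 null, genotype Prdm1D/D) came from Prdm1 BEH/CA;ROSA26:CreERT2 females, in which a Cre expressed from the ubiquitous ROSA26 locus is switched on by 4OH tamoxifen, and the wild type cells came from C57BL/6 females. All MECs were taken from pregnant mice, seeded on growth factor reduced Matrigel in medium with EGF, insulin and hydrocortisone, and given tamoxifen on D0. The medium therefore supplied a ligand of the EGF receptor to every culture. The wild type mice are not described as carrying Cre, so loss of Blimp-1, Cre activity and donor line cannot be told apart. The methods speak of independent cultures but do not say whether replicates came from separate animals, so a p-value here reflects only how far these samples spread, which may be technical.

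Between 18087 and 18905 probes were detected on each array, and arrays of 1 group correlated at 0.991 to 0.994. A Prdm1 probe was detected on 1 D3 cKO array, no D3 wild type array, 3 D4 cKO arrays and no D4 wild type array. No source used here places that probe relative to the deleted part of the gene, and it checks no label. Of 12 luminal markers, 9 were tested and none was called by genotype on its brightest probe. For Kit the cKO over wild type value at D4 was -1.01 on the log2 scale (adjusted p = 0.0504 by limma) and, on another probe, -1.25 (adjusted p = 0.041). The summed intensity of the 9 was 66993 to 72768 in D3 cKO, 68421 to 70462 in D3 wild type, 68519 to 70728 in D4 cKO and 66675 to 75054 in D4 wild type arrays. Of 5 immune markers only 3 had a named probe, and neither these nor the 3 adipocyte markers were detected on at least 3 arrays. All 4 endothelial markers were tested. They summed to 579 to 681 in D3 cKO, 583 to 743 in D3 wild type, 543 to 643 in D4 cKO and 419 to 650 in D4 wild type arrays.

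Areg had the largest change among the members. The log2 intensity was 12.25, 12.18 and 12.41 in D3 cKO arrays, against 11.92, 11.89 and 11.94 in D3 wild type arrays. At D4 it was 11.84, 11.80 and 11.94 in cKO arrays, against 10.44, 10.98 and 10.93 in wild type arrays. The cKO arrays lay above the wild type arrays at both days without overlap. In the deposited intensities, before any normalization, the D4 cKO arrays read 3468, 3876 and 3735, against 1587, 2037 and 1875 in D4 wild type arrays.

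At D4 Areg was 2.11-fold higher in Blimp-1 cKO than in wild type cultures, a log2 fold change of 1.08 (SE 0.14, 95% confidence interval 0.78 to 1.38, adjusted p = 0.000959 by limma). It was the 1 member of 6 tested that was called, that is, passed an adjusted p of 0.05 and a fold of 1.5, where 4.24% of all tested genes were called. The Areg probe was named through the study's list of probes changed at D4, so counts that use the D4 arrays are no open test against such shares. At D3 the log2 fold change was 0.36 (SE 0.14, adjusted p = 0.288) and no member was called, against 2.49% of all genes. Averaged over both days the log2 fold change was 0.72 (adjusted p = 0.000718 by limma), and Areg was again the 1 member called, against 4.67% of all genes. Averaged p-values, here and below, count the D3 and D4 arrays of a genotype as independent, although same-numbered cKO arrays deviated together. They may therefore be too small. The difference between the D4 and D3 genotype effects was 0.72 on the log2 scale (SE 0.19, unadjusted p = 0.00337 by limma), with an adjusted p of 0.423. For this difference 0% of all genes passed the adjusted threshold, whereas 794 had an unadjusted p under 0.05.

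The Areg probe is not in the platform annotation used here and was named through the study's own list of probes that changed at D4. Its D4 call and the comparisons that share those D4 arrays are therefore not independent evidence, and other probes for Areg may be among the unnamed ones. The D3 arrays played no part in that list. The D4 call was kept when any 1 array was left out (log2 fold change 0.91 to 1.18, adjusted p 0.0014 to 0.00546). It was lost with the methods' t-test, which they name for comparisons of wild type with Blimp-1 cKO in general, whereas for the arrays they name an error model of GenomeStudio (adjusted p = 0.132).

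The arrays of replicate 1, 2 and 3 at D4 were hybridised on a BeadChip each, with cKO and wild type side by side. Within the BeadChips the cKO minus wild type difference in Areg was 1.40, 0.82 and 1.02 on the log2 scale, so the direction was the same on each. Of 8 basal and myoepithelial markers, 6 were tested (Cnn1 and Oxtr were not). Of these 1, Krt17, was called at D4 (log2 fold change 0.62, adjusted p = 0.0304 by limma), against 4.24% of all genes. Krt5 (1.92), Myh11 (1.81) and Acta2 (0.63) had adjusted p-values of 0.059 to 0.0698, and Krt14 (0.13) and Trp63 (-0.09) were far from a call. The other tested Acta2 probes gave 0.97, 1.06 and 0.98 at D4 (adjusted p 0.0933 to 0.116 by limma). Averaged over both days Krt5 (1.76, adjusted p = 0.0161), Myh11 (1.43, adjusted p = 0.0272) and Acta2 (0.62, adjusted p = 0.0108) were called by limma. That is 3 of the 6 markers, against 4.67% of all genes. These averaged p-values too count the D3 and D4 arrays of a genotype as independent. Together the 6 had a summed intensity of 62262 to 74276 in D4 cKO arrays, against 48697 to 57055 in D4 wild type arrays. At D3 the sums were 63072 to 79972 in cKO arrays, against 59050 to 63761 in wild type arrays. Fibroblast markers (6 of 6 tested) summed to 4112 to 5181 in D4 cKO arrays, against 2360 to 5581 in D4 wild type arrays. At D3 they summed to 2754 to 4561 in cKO arrays, against 2394 to 2641 in wild type arrays, without overlap. Averaged over both days 1 of the 6, Col1a2, was called (0.64, adjusted p = 0.0118 by limma). The part of these cell types in the Areg result was not tested, and in these bulk cultures fewer cells of a type and less RNA per cell cannot be told apart.

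Across the 4 groups Areg was highest in D3 cKO cultures and lowest in D4 wild type cultures. The means were 12.28 ± 0.12 in D3 cKO, 11.92 ± 0.03 in D3 wild type, 11.86 ± 0.07 in D4 cKO and 10.78 ± 0.30 in D4 wild type cultures (SD, n = 3 each). The D4 cKO arrays overlapped the D3 wild type arrays, and these neighbours in the order did not differ beyond their spread. Each other pair of neighbouring groups did not overlap.

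From the side of culture time, Areg fell in wild type cultures, with a log2 fold change of -1.14 for D4 over D3, a 2.20-fold drop (SE 0.14, adjusted p = 0.000683 by limma). It was the 1 member called, where 12% of all genes were called. In cKO cultures the log2 fold change was -0.42 (SE 0.14, adjusted p = 0.0941), and no member was called against 4.14% of all genes. Between same-numbered arrays the D4 minus D3 difference was -0.41, -0.38 and -0.47 in cKO cultures, against -1.48, -0.91 and -1.02 in wild type cultures. With the replicate number as a block, the cKO value had an adjusted p of 0.0836 by limma and remained without a call.

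**Figure D1:**
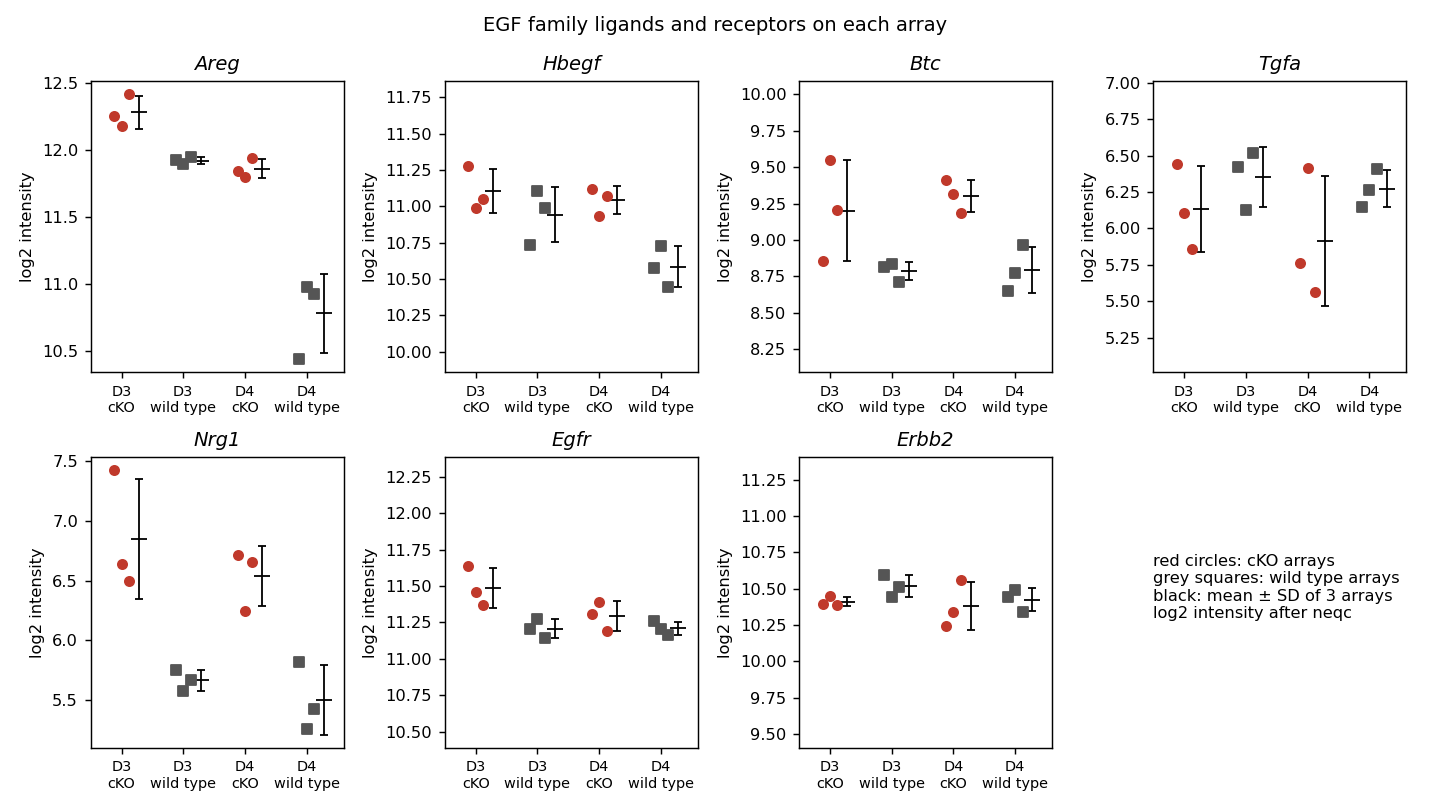
Log2 intensity after background correction and quantile normalization (vertical axis, spanning at least 2 log2 units in each panel) of the tested ligands and receptors and of Nrg1, on each of 12 arrays. Red circles are cKO arrays, grey squares are wild type arrays, and black marks give the mean ± SD of 3 arrays; the D4 wild type arrays of Areg (10.44 to 10.98) lie below the arrays of the other groups.

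The Areg gene lies on mouse chromosome 5 beside 3 relatives. In the order of RefSeq genes on GRCm38.p6 the protein-coding genes Epgn, Ereg, Areg and Btc follow each other with 0 others between them. The deposited files name no regulatory region, so the 250 bases before the annotated Areg start are shown as the stretch nearest to the gene that changed most. The sequence (RefSeq, GRCm38.p6, chr5:91139349-91139598, plus strand, 5′ to 3′) has in capitals the letters GAAAG, the core of the Blimp-1 motif, and TGACGTCA, the cyclic AMP response element.
Areg promoter: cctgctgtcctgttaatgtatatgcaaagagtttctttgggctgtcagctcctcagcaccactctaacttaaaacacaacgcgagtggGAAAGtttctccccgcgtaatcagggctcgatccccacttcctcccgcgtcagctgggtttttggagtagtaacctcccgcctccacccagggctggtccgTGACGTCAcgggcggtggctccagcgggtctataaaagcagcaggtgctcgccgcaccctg

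GAAAG starts 162 bases and TGACGTCA 61 bases before the start site, and neither overlaps the other. Searched on both strands from 250 bases before to 50 after each start, GAAAG occurred in 57.3% of 32851 promoters, so its presence at Areg is common. It occurred in 4 of the 5 members searched (Areg, Btc, Egfr and Erbb2, not Tgfa). The search of members left out the chromosome of Hbegf, and neither Ereg nor Erbb3 was among the 5. TGACGTCA occurred in 1.79% of promoters, and among the 5 it was found at Areg alone. The AP-1 element TGANTCA, present in 7.81% of promoters, was found in none of the 5. These matches describe letters and not binding.

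Hbegf, a ligand that also binds heparan sulphate, had 1 probe detected on all 12 arrays and another detected on none. The log2 intensity was 11.28, 10.99 and 11.05 in D3 cKO arrays, against 10.73, 11.10 and 10.99 in D3 wild type arrays. At D4 it was 11.12, 10.93 and 11.07 in cKO arrays, against 10.58, 10.73 and 10.45 in wild type arrays. The groups overlapped at D3 and did not overlap at D4. The log2 fold change at D4 was 0.46 (SE 0.13, adjusted p = 0.0681), against 0.16 at D3 (adjusted p = 0.682), neither called. Within the D4 BeadChips the difference was 0.54, 0.21 and 0.63. For D4 over D3, the log2 fold change was -0.06 in cKO cultures (adjusted p = 0.82) and -0.36 in wild type cultures (adjusted p = 0.0751).

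Btc, encoding betacellulin, showed a difference of similar size at both days. The log2 intensity was 8.85, 9.55 and 9.21 in D3 cKO arrays, against 8.81, 8.83 and 8.71 in D3 wild type arrays. At D4 it was 9.41, 9.31 and 9.19 in cKO arrays, against 8.65, 8.77 and 8.97 in wild type arrays. The cKO arrays lay above the wild type arrays at each day, although the lowest D3 cKO array (8.85) stood just above the highest wild type array (8.83). The log2 fold change was 0.42 at D3 (SE 0.16, adjusted p = 0.293) and 0.51 at D4 (SE 0.16, adjusted p = 0.101). Averaged over both days it was 0.46 (SE 0.11, 95% confidence interval 0.21 to 0.71), with an adjusted p of 0.0295 but a 1.38-fold difference, under the minimum for a call. Between the days Btc differed by 0.10 in cKO and 0.01 in wild type cultures on the log2 scale.

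Tgfa and Ereg gave little or no signal. The Tgfa probe was detected on 1 D3 cKO, 2 D3 wild type, 1 D4 cKO and 1 D4 wild type array. Its log2 intensity was 5.86 to 6.45 in D3 cKO arrays, against 6.13 to 6.52 in D3 wild type arrays, and 5.56 to 6.42 in D4 cKO arrays, against 6.15 to 6.41 in D4 wild type arrays. The groups overlapped at both days, and the D4 value of -0.36 on the log2 scale (adjusted p = 0.412) was measured close to background. Both Ereg probes, for epiregulin, were undetected on all 12 arrays.

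**Figure D2:**
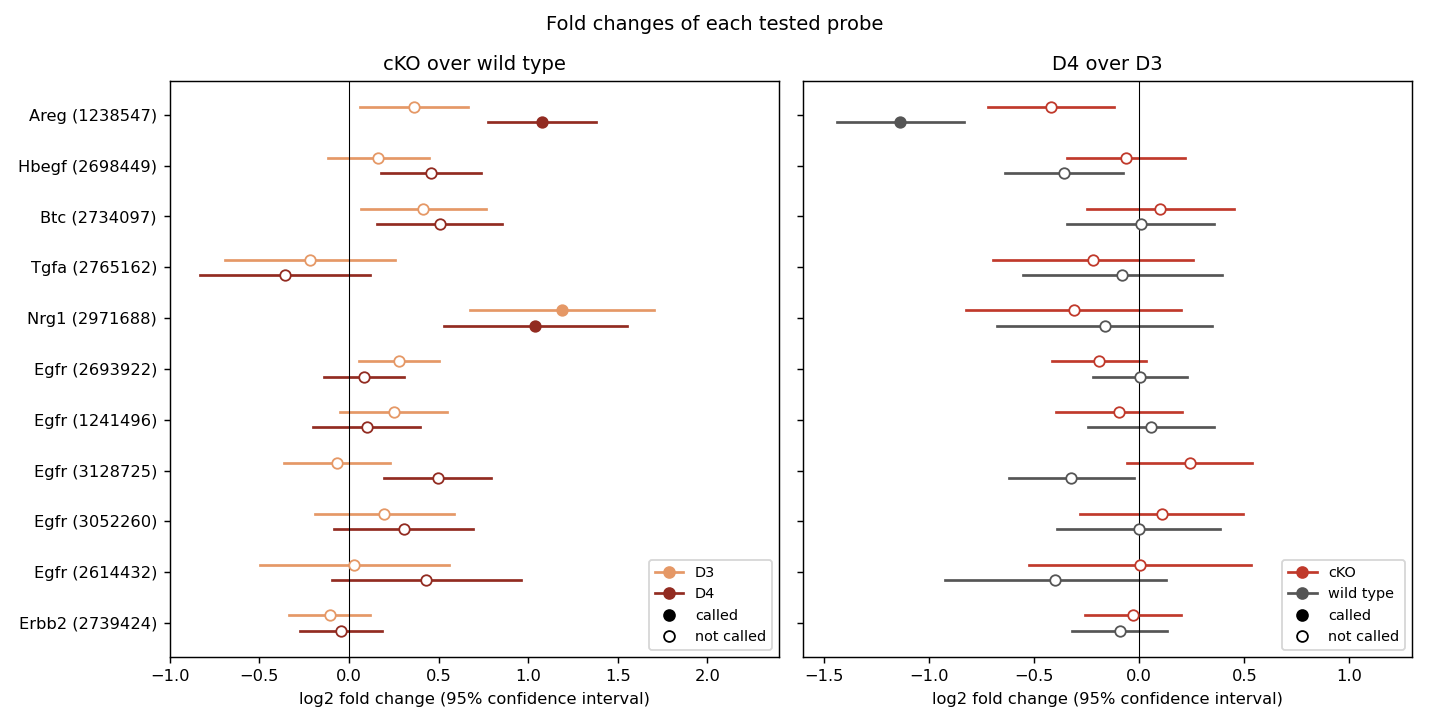
Log2 fold change with its 95% confidence interval (horizontal axis) for each tested probe, cKO over wild type at D3 and D4 on the left and D4 over D3 in cKO and wild type cultures on the right. Filled points passed an adjusted p of 0.05 and a fold of 1.5, as Areg did at D4 (1.08) and in wild type cultures between the days (-1.14); Nrg1 was not detected on wild type arrays, so its plotted value depends on the background correction.

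Among the receptors, Egfr was read by 6 probes, of which 5 were tested. The brightest gave a log2 intensity of 11.64, 11.46 and 11.37 in D3 cKO arrays, against 11.21, 11.27 and 11.14 in D3 wild type arrays. At D4 it gave 11.31, 11.39 and 11.19 in cKO arrays, against 11.26, 11.21 and 11.16 in wild type arrays. The groups did not overlap at D3 and overlapped at D4. The log2 fold change was 0.28 at D3 (95% confidence interval 0.06 to 0.50, adjusted p = 0.258) and 0.09 at D4 (95% confidence interval -0.14 to 0.31, adjusted p = 0.716).

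The Egfr probes did not give 1 answer. Over the 5 tested probes the log2 fold change ran between -0.07 and 0.28 at D3 and between 0.09 and 0.50 at D4, and none was called. The probe with the value of 0.50 (SE 0.14, adjusted p = 0.0629) read 9.11, 9.06 and 9.0 in D4 cKO arrays, against 8.85, 8.48 and 8.35 in D4 wild type arrays, without overlap. At D3 the same probe read 8.98, 8.63 and 8.84 in cKO arrays, against 8.91, 8.90 and 8.85 in wild type arrays, with overlap. With the median over its probes, Egfr at D4 stood at 0.47 on the log2 scale (adjusted p = 0.0468), under a fold of 1.5. That median was taken over the intensities on each array, so it mostly follows the probe of middle intensity. This is the probe with the value of 0.50, so the median adds no separate evidence. No source used here says which transcripts each probe reads.

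Erbb2, the partner receptor, differed least. Its log2 intensity was 10.40, 10.45 and 10.39 in D3 cKO arrays, against 10.60, 10.44 and 10.51 in D3 wild type arrays. At D4 it was 10.24, 10.34 and 10.56 in cKO arrays, against 10.44, 10.49 and 10.34 in wild type arrays. The groups overlapped at both days. The 95% confidence interval of the log2 fold change was -0.34 to 0.12 at D3 and -0.27 to 0.18 at D4, which leaves out a 1.5-fold change in either direction. Erbb3, the neuregulin receptor, was detected on 1 D3 wild type and 1 D4 wild type array and on no cKO array, and was not tested.

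Set side by side, the 4 tested ligands had a median log2 fold change of 0.26 at D3 and 0.48 at D4, against 0.09 and 0.02 for the 2 tested receptors. The receptor value depends on the probe taken for Egfr. At D4 its brightest probe gave 0.09, whereas its other tested probes gave 0.10 to 0.50. The ligand value includes Tgfa, which was read close to background. The median of all genes was -0.02 at both days. At D4 the cKO arrays lay above the wild type arrays for Areg, Hbegf and Btc among the ligands and for neither receptor on its brightest probe. The share of all genes whose groups lay apart in this way was not counted, so this is no result about the ligands. In that comparison 20% of all genes had an unadjusted p under 0.05 by limma. The difference between ligands and receptors itself was not tested. The ligand median includes Areg, whose probe was named through the study's list of probes changed at D4.

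Of 7 further genes of the family, 6 had a probe and Egf, Epgn and Nrg1 were tested, whereas Nrg3, Nrg4 and Erbb4, a receptor for neuregulins, were not detected. Nrg1, which encodes neuregulin, was the 1 called of these 3 at both days, against 2.49% of all genes at D3 and 4.24% at D4. Its tested probe was detected on 3 cKO arrays and no wild type array at each day, and its 2 other probes were detected on none. The probe thus entered the test through the cKO arrays alone, where it is high, so its p-values are given as a description and do not support a difference by themselves. The log2 intensity was 7.43, 6.64 and 6.49 in D3 cKO arrays, against 5.75, 5.58 and 5.67 in D3 wild type arrays. At D4 it was 6.71, 6.25 and 6.65 in cKO arrays, against 5.82, 5.25 and 5.43 in wild type arrays. Since the wild type arrays give only a bound, the lower bound for cKO over wild type was 1.53-fold at D3 and 1.23-fold at D4. It is relative to the dimmest signal that still counted as detected there, and it was not tested. The adjusted p of 0.0181 at D3 and 0.0275 at D4 by limma belong to the fitted log2 fold changes of 1.19 and 1.04.

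The Nrg1 call depended on single arrays and on the settings at each day. At D3 it was lost without wild type replicate 2 (adjusted p = 0.0788) or 3 (adjusted p = 0.071), and at D4 without cKO replicate 1 (0.0925) or 3 (0.0741) or wild type replicate 2 (0.0991) or 3 (0.0967). It was called in 6 of 11 other settings at D3 and 9 of 11 at D4. At D3 it was lost with the authors' processed values (adjusted p = 0.086 by limma) and with D3 arrays alone, without (0.0627) or with the replicate block (0.0664). Without background correction its log2 fold change was 0.43 at D3 and 0.38 at D4, under a fold of 1.5. Epgn, encoding epigen, showed no call by genotype, and its log2 fold change for D4 over D3 was -0.82 in cKO cultures (adjusted p = 0.161) and -1.0 in wild type cultures (adjusted p = 0.055). Egf itself stood at -0.34 on the log2 scale at D4 (adjusted p = 0.61).

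The machinery around the receptors was read as lists of genes. By genotype 2.49% of all genes were called at D3 and 4.24% at D4, so no call in a short list is no result about it. Of 9 genes for ligand shedding, all were tested and none was called by genotype at either day, with a median log2 fold change of -0.02 at D3 and 0.24 at D4. The largest values at D4 were 0.79 for Adam8 (SE 0.27, adjusted p = 0.13) and 0.52 for Adam12 (SE 0.13, adjusted p = 0.0449, under a fold of 1.5). Both, which encode membrane metalloproteases, were lower at D4 than at D3 in wild type cultures (log2 fold change -1.39 and -0.73). In that comparison 12% of all genes were called. Of 22 genes that relay the receptor signal, 14 were tested and none was called by genotype, with Src at 0.55 at D4 (adjusted p = 0.0933). Grb2, read close to background, was detected on 2 D4 cKO arrays and on no D4 wild type array. Its lower bound for cKO over wild type was 1.03-fold, and it was not called (adjusted p = 0.461 by limma). Between the days 4.14% of all genes were called in cKO and 12% in wild type cultures. Pik3r1, a regulatory subunit of PI3 kinase, was higher at D4 than at D3 in cKO (0.71, adjusted p = 0.035) and wild type cultures (0.96, adjusted p = 0.0031). The call in cKO cultures was lost in 6 of 12 fits that leave out 1 array, namely without D3 cKO replicate 1 or 3, D3 wild type replicate 3 or any D4 cKO array (adjusted p up to 0.112 by limma).

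Of 20 genes for feedback and receptor removal, 16 were tested and 1, Dusp4, was called at D4, a share close to the 4.24% of all genes. Dusp4 encodes a phosphatase that inactivates ERK, and it was higher in cKO cultures at D4, with 12.55 to 12.78 in D4 cKO arrays, against 11.70 to 12.07 in D4 wild type arrays. The log2 fold change was 0.75 (SE 0.12, adjusted p = 0.0043 by limma), and the call was kept when any 1 array was left out. The other Dusp4 probes gave 0.60, 0.48 and 0.31, and the median over the probes (0.40) was under a fold of 1.5. With D4 arrays alone and the replicate block the adjusted p was 0.114 by limma. In wild type cultures Dusp5 and Dusp6, 2 more ERK phosphatases, were higher at D4 than at D3 (1.19 and 0.80) and Socs4 was lower (-0.60). The Socs4 value was under a fold of 1.5 without D3 wild type replicate 2 or D4 wild type replicate 1. In that comparison 12% of all genes were called. No gene of the list was called between the days in cKO cultures, against 4.14% of all genes. The difference between the genotypes was not called for Dusp5, Dusp6 or Socs4 (adjusted p = 0.593, 0.379 and 0.791 by limma).

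Of 25 genes known as targets of EGF signalling, 22 were tested, none was called at D3 (against 2.49% of all genes) and 2 were called at D4 (against 4.24%). A count of 2 in 22 is close to that share and is no result about the list. Plau, encoding the protease urokinase, read 10.08 to 10.35 in D4 cKO arrays, against 9.08 to 9.73 in D4 wild type arrays, with a log2 fold change of 0.76 (SE 0.17, adjusted p = 0.0287). Jun, an AP-1 transcription factor, went the other way, at 10.28 to 11.26 in D4 cKO arrays, against 11.92 to 12.17 in D4 wild type arrays. Its log2 fold change was -1.45 (SE 0.35, adjusted p = 0.0412). The call of Plau was lost without D4 cKO replicate 1 (adjusted p = 0.0884) or 2 (0.0943) or D4 wild type replicate 3 (0.079). The call of Jun was kept in 4 of the 12 fits that leave out 1 array (adjusted p 0.0123 to 0.13) and lost without D3 cKO replicate 1 or 2, D3 wild type replicate 3, D4 cKO replicate 1 or 2, or any D4 wild type array. With D4 arrays alone and the replicate block the adjusted p was 0.0866 for Plau and 0.085 for Jun by limma. The list had a median log2 fold change of 0.14 at D4, beside -0.02 over all genes.

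Between the days, 3 of the 22 targets were called in cKO cultures (4.14% of all genes were) and 8 in wild type cultures (12% of all genes); these genes are named because they are few, after their values were seen. In wild type cultures Jun (1.79), Egr1 (0.72), Egr2 (0.78), Egr3 (1.37) and Zfp36 (0.85), immediate early genes, were higher at D4 on the log2 scale, and Etv4 (-0.86), Plaur (-1.10) and Plau (-0.90) were lower. In cKO cultures Egr1 (0.63) and Zfp36 (0.65) were higher and Plaur (-0.72), the urokinase receptor, was lower. With 1 array left out, calls were lost for Plaur (any D3 cKO array, D4 cKO replicate 2 or 3; adjusted p up to 0.0981) and Zfp36 (D3 cKO replicate 1 or 2, D4 cKO replicate 3; up to 0.0807) in cKO cultures. In wild type cultures this held for Egr2 (D3 replicate 2 or 3, D4 replicate 1 or 3; up to 0.0754). Whether any of these changes differed between the genotypes was not shown, since the difference was called for no gene.

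**Figure D3:**
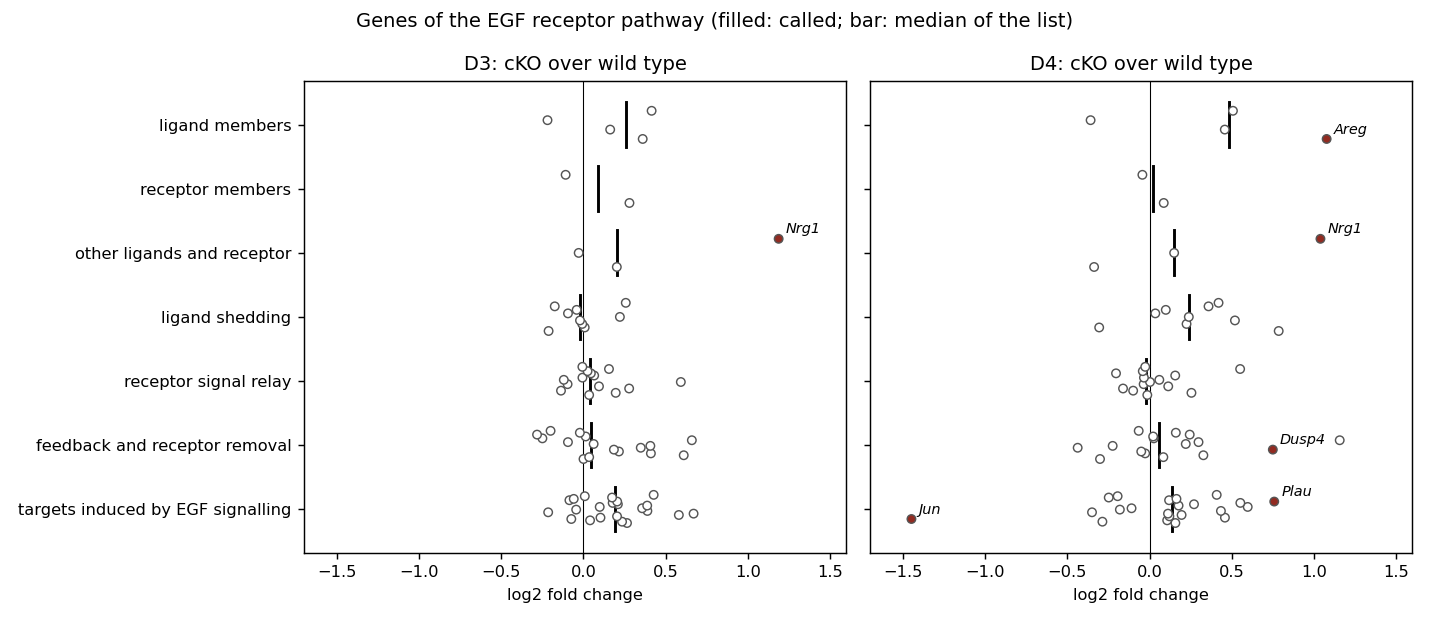
Log2 fold change of cKO over wild type cultures (horizontal axis) at D3 and D4 for the tested genes of the 7 member and pathway lists drawn, 1 point a gene; points are spread vertically within a list for visibility. Filled points were called and black bars are list medians; the 7 bars lie within 0.26 of zero at D3, and at D4 the ligand bar is at 0.48.

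The genes whose pattern was most like that of Areg were sought over the 12 arrays, after each gene was centred on its own mean. The smallest root mean square differences from Areg belonged to Defb14 (0.19 on the log2 scale), Sh2d5 (0.21) and Map1b (0.22), beside an SD of Areg itself of 0.60. Defb14 encodes a beta-defensin and Map1b a microtubule-associated protein. At D4 the log2 fold change of cKO over wild type was 0.94 for Defb14 (adjusted p = 0.00798), 0.85 for Sh2d5 (adjusted p = 0.0619) and 0.70 for Map1b (adjusted p = 0.0107), and for D4 over D3 in wild type cultures it was -1.15, -1.06 and -0.96. These genes were picked for their likeness, so their values are a description.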

How the data were processed

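RNA of 12 MEC 3D cultures was measured on Illumina Mouse WG-6 v2 BeadChips. The authors summarised the scans with GenomeStudio, and the intensity values deposited without normalization were used here. The detection p-values, deposited by the authors, set each probe against negative control beads. Processed intensity values from the authors (rank-invariant normalization, background subtracted) served as an alternative.

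neqc (limma 3.58.1, R 4.3.3, offset 16) used the detection p-values to correct background, then normalized by quantiles and took log2. Of 45281 probes, 34885 had 1 symbol in the annotation, 18 had several, 10378 had none, and 1 (Areg) was named through the study's probe list. A model with a mean for each of 4 groups was fitted with limma to 19972 probes detected (p under 0.05) on at least 3 arrays, with Benjamini-Hochberg adjustment over all of them. A gene's brightest tested probe represents it. Calls required an adjusted p up to 0.05 plus a 1.5-fold change, and the difference between days on the adjusted p alone. On simulated data at D4, 73 of 100 probes changed 2-fold and 96 of 100 changed 4-fold were called. Precision is limited by the number of arrays. Each member with every tested probe is reported, and of each list the genes called by genotype or, where none was, the 2 with the largest change at D4. The members and lists were chosen with earlier results of these data known.

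Deviations from group means of same-numbered D4 and D3 arrays correlated at 0.308 to 0.362 in cKO and 0.0813 to 0.179 in wild type cultures. The numbers therefore pair the cKO arrays by day. The fit averaged over both days did not model this pairing, and no fit with blocks within each genotype was made for it. The BeadChip of each D4 array was read from the study's probe list, whose values equalled the deposited ones for 598 of 598 probes.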

Additional observations from a re-analysis of the deposited data

How the results depend on the processing

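With 3 arrays a group, probes near background, such as those of Tgfa and Erbb3, carry little information. Areg was called at D4 in 11 of 12 other settings and for D4 over D3 in wild type cultures in 13 of 13. Its probe was named through the study's list of probes changed at D4, so these counts describe the settings and are not independent evidence. At D4 the number of members called was 0 with the methods' t-test, which also left Nrg1, Dusp4, Plau and Jun without a call. Without a fold minimum 2 members, Areg and Btc, were called over both days. The Areg difference between days had an adjusted p of 0.181 to 0.572 over 9 other settings by limma. The cause of these changes was not tested.

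Same-numbered cKO and wild type arrays did not deviate together at D4 (correlations -0.0789 to 0.0345). With the replicate block Areg had an adjusted p of 0.00154 at D4 and 0.00128 between days in wild type cultures by limma, and 0.049 at D4 with the D4 arrays alone. Blocks within each genotype, chosen after seeing the data, left the cKO change of Areg between days at an adjusted p of 0.0876. The block changed no other call of a member.

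Signs changed for 19 values, none of them called. With the authors' processed values Erbb2 stood at 0.000796 for genotype at D4 and 0.0172 for the cKO day change. With the median over probes Egfr stood at -0.0346 for genotype at D3, 0.508 for the difference between days, 0.208 for the cKO and -0.301 for the wild type day change. That median mostly follows the Egfr probe of middle intensity. With 1 array left out, the difference between days was -0.392 to 0.0354 for Tgfa, -0.0825 to 0.265 for Btc and -0.0251 to 0.134 for Erbb2. The cKO day change was -0.123 to 0.0237 for Hbegf, -0.0747 to 0.273 for Btc and -0.119 to 0.0403 for Erbb2. The wild type day change was -0.194 to 0.00123 for Tgfa, -0.0776 to 0.0812 for Btc and -0.0307 to 0.036 for Egfr, and Erbb2 at D4 was -0.133 to 0.0262.

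Over all genes, D4 calls by genotype numbered 455 as reported, 345 and 215 with D4 arrays alone (without and with the block), 82 with the methods' t-test and 275 without D4 wild type replicate 3. D3 calls were 267 as reported, 4 with the methods' t-test, 172 with D3 arrays and the block, and 176 or 178 without D3 wild type replicate 2 or 3. For the cKO day change they were 444 as reported, 0 with the methods' t-test, 82 and 282 with cKO arrays alone, 171 and 215 without D3 cKO replicate 1 or 3, and 143 and 164 without D4 cKO replicate 2 or 3. For the wild type day change they were 1285 as reported, 519 with the methods' t-test, 746 without background correction and 2163 without a fold minimum. For the difference between days they were 0 as reported, 4 without background correction, 3 with an offset of 50, 1 with the replicate block and 6 with trended and robust variances. Averaged calls were 501, against 308 without background correction and 853 without a fold minimum.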
